A study of Mus musculus with 14 samples.

Results

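The early step of the libraries labelled MACF1 knockdown, from day 0 to day 3, was measured over the 12274 genes that reached 10 counts in 2 or more of its 4 libraries, out of 24346 genes in the deposited count table. The cells were MC3T3-E1, a mouse line of osteoblast precursors that lays down and mineralises bone matrix in culture. The series has 14 polyadenylated RNA libraries, control (NC in the titles) and MACF1 knockdown (sh in the titles), at days 0, 3, 5 and 10, with 2 libraries per condition at days 0, 3 and 5 and 1 at day 10. MACF1 is a large spectraplakin protein that links actin filaments to microtubules, and the title of the series ties it to osteoblast differentiation and Wnt signalling. The step described here compares the 2 libraries of knockdown day 0 with the 2 of knockdown day 3, and the control libraries of days 0 and 3 stand beside it. Both conditions share the cell line, and the event from which the days are counted, the short hairpin sequence, whether the cells are 1 clone or a pool, and the medium do not appear in the sources used here. The design text calls the paired libraries biological replicates, but nothing states that they were grown separately, so each p reflects only how far these libraries scatter, which may be technical. At the edge of the membership rule, 124 genes had 10 as the second highest of their 4 counts and 137 had 9, with median totals over the 4 libraries of 36 and 31 counts.

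Osteoblast precursors divide, then leave the cell cycle while they build a matrix of type I collagen, and later deposit mineral in it. The transcription factors Runx2 and Sp7 direct this course, alkaline phosphatase (Alpl) frees phosphate for mineral, and small acidic glycoproteins such as bone sialoprotein (Ibsp), osteopontin (Spp1) and Dmp1 bind mineral. Wnt ligands, which act through beta-catenin and the Lef1/Tcf factors, further bone formation in this lineage. Genes of sterol, energy and stress pathways, which change with the state of growth in many cell types, were listed beside the bone genes.

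Macf1, the gene the labels name as knocked down, was at 156 and 162 CPM at day 0 and 171 and 169 CPM at day 3 under that label, against 154 and 159.8 CPM at day 0 and 189 and 56.2 CPM at day 3 in control. The level of the targeted gene thus did not set the conditions apart at these days, and only control day 3 replicate 2 stood low. From day 0 to day 3 the knockdown libraries gave a log2 difference of 0.11, SE 0.09, adjusted p = 0.482 for Macf1. Dst, the related spectraplakin, was at 232 and 264 CPM at day 0 and 196 and 194 CPM at day 3 (log2 difference -0.33, SE 0.14, adjusted p = 0.152).

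Totals were 18089569 and 13846849 counts at day 0 and 19094812 and 13096527 counts at day 3, within the range of 8044687 to 23301514 over the series. Both pairs of libraries differed by more than sampling noise, with a chi-square per degree of freedom of 17.8 at day 0 and 16.1 at day 3, and correlated at 0.993 and 0.992 on the log2 scale. Genes for cytoplasmic ribosomal proteins held 7.40% and 6.93% of the reads at day 0 and 5.92% and 5.78% at day 3, and mitochondrially encoded genes 3.46% and 3.78% against 4.06% and 4.08%. Log2 differences also ran with the GC content of transcripts, with medians of 0.14, 0.01, -0.06 and -0.09 over 4 bins of equal size from low to high GC content. A fit with GC offsets called 909 genes higher (7.41%) and 772 lower (6.29%) in the step described below, and beyond it the part of these shares in the results was not tested. In control, day 3 replicate 2 stood apart from every other library, with 20.0% of its reads on ribosomal protein genes and a correlation of 0.917 with its partner, so each comparison with control is given with and without it. Without it, control day 3 is 1 library, which is assumed to vary like the others.

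The osteoblast markers Runx2, Sp7, Col1a1, Col1a2, Spp1, Dlx5, Postn and Sparc were present in all 4 libraries, while Alpl, Ibsp and Bglap were near 0 at day 0. Of 66 genes listed as markers of other cell types and found in the count table, 20 were tested, 33 had counts below the filter and 13 had 0 counts in the 4 libraries. Adipoq, Ptprc, Adgre1, Cdh5, Tie1, Calcr, Dcstamp, Myog, Pax7 and Esrp1, which mark fat, blood, macrophages, endothelium, osteoclasts, muscle and epithelium, were among those at 0. Epithelial markers, of which Krt14 held most, had a summed level of 51.6 and 49.99 CPM at day 0 and 18.2 and 16.3 CPM at day 3. Summed osteoclast markers, held almost wholly by Mmp9 and Ctsk, were at 86.5 and 91.3 CPM against 109 and 116 CPM. Summed chondrocyte markers were at 354 and 322 against 306 and 283 CPM. Of the 7 tested chondrocyte genes, however, 5 had a log2 difference above 0 and 2 below, with a median of 0.33. The other marker lists summed to between 1.20 and 19.2 CPM in each library. Of the marker genes tested, 2 of 2 epithelial (Krt14 and Cdh1), 1 of 7 chondrocyte (Sox9) and 1 of 2 adipocyte genes (Plin4) were called lower, and 1 of 2 genes each of the tenocyte (Mkx), macrophage and blood (Lyz2) and osteoclast (Ctsk) lists were called higher. The chondrocyte call was lost without either library of day 0 or day 3 replicate 2, with GC offsets and by limma, the tenocyte call without either library of day 0 or day 3 replicate 1, the macrophage and blood and the osteoclast call each without any 1 library of day 0 or 3, and 1 of the epithelial calls was lost in every fit without 1 library except that without day 0 replicate 1. Their part in the results was not tested. In such bulk libraries, fewer cells of a type and less RNA per cell cannot be told apart.

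Between day 0 and day 3, 854 genes rose (6.96% of those tested) and 714 fell (5.82%) in edgeR's quasi-likelihood test at an adjusted p below 0.05, 1568 in all (12.8%). The change was at least 2-fold in 210 of the risers (1.71%) and 113 of the fallers (0.921%). Over all tested genes the median log2 difference was 0.00, with an interquartile range of -0.21 to 0.24. The levels of the 2 days did not overlap in 6823 genes (55.6%). Protein-coding genes made up 11446 of the tested genes, 836 of the risers and 701 of the fallers. Genes of mineralisation and matrix were among the largest rises, and of the lists described below mitosis had the most higher calls and cholesterol synthesis the most lower ones, as the plot of gene lists shows. Calls fell to 663 without day 0 replicate 1, 615 without day 0 replicate 2, 623 without day 3 replicate 1 and 812 without day 3 replicate 2, where the lone library is assumed to vary like the others. They numbered 123 (80 higher, 0.652%, and 43 lower, 0.35%) when all 14 libraries shared 1 estimate of the spread, which was 0.0462 as a common dispersion against 0.0123 in the 7 knockdown libraries. Among the higher calls of that fit were 7 genes of the bone matrix list, 5 each of Wnt targets and of proteoglycans and glycoproteins, 4 of the IGF and imprinted list, 3 angiogenic factors, and 2 each of collagens, mitosis genes, osteoblast factors, matrix proteases, integrins, contractile genes and Wnt ligands and receptors. DESeq2 called 790 higher (6.44%) and 658 lower (5.36%), and limma on log2 RPKM values 653 higher (5.32%) and 499 lower (4.07%).

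**Figure D1:**
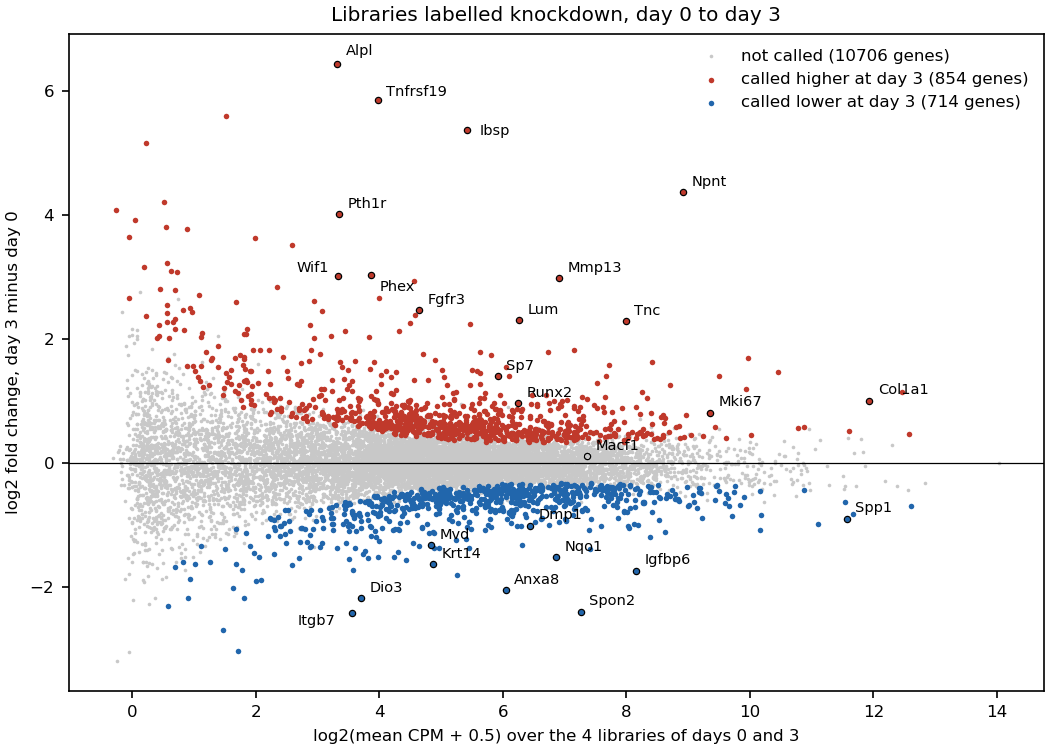
Log2 difference from day 0 to day 3 against mean level (log axis, CPM) for the 12274 tested genes in the libraries labelled knockdown, with called genes coloured and leading genes named. The points with the largest rises, Alpl, Tnfrsf19 and Bglap, start from day 0 levels under 1 CPM, and 854 genes lie among the coloured risers against 714 fallers.

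**Figure D2:**
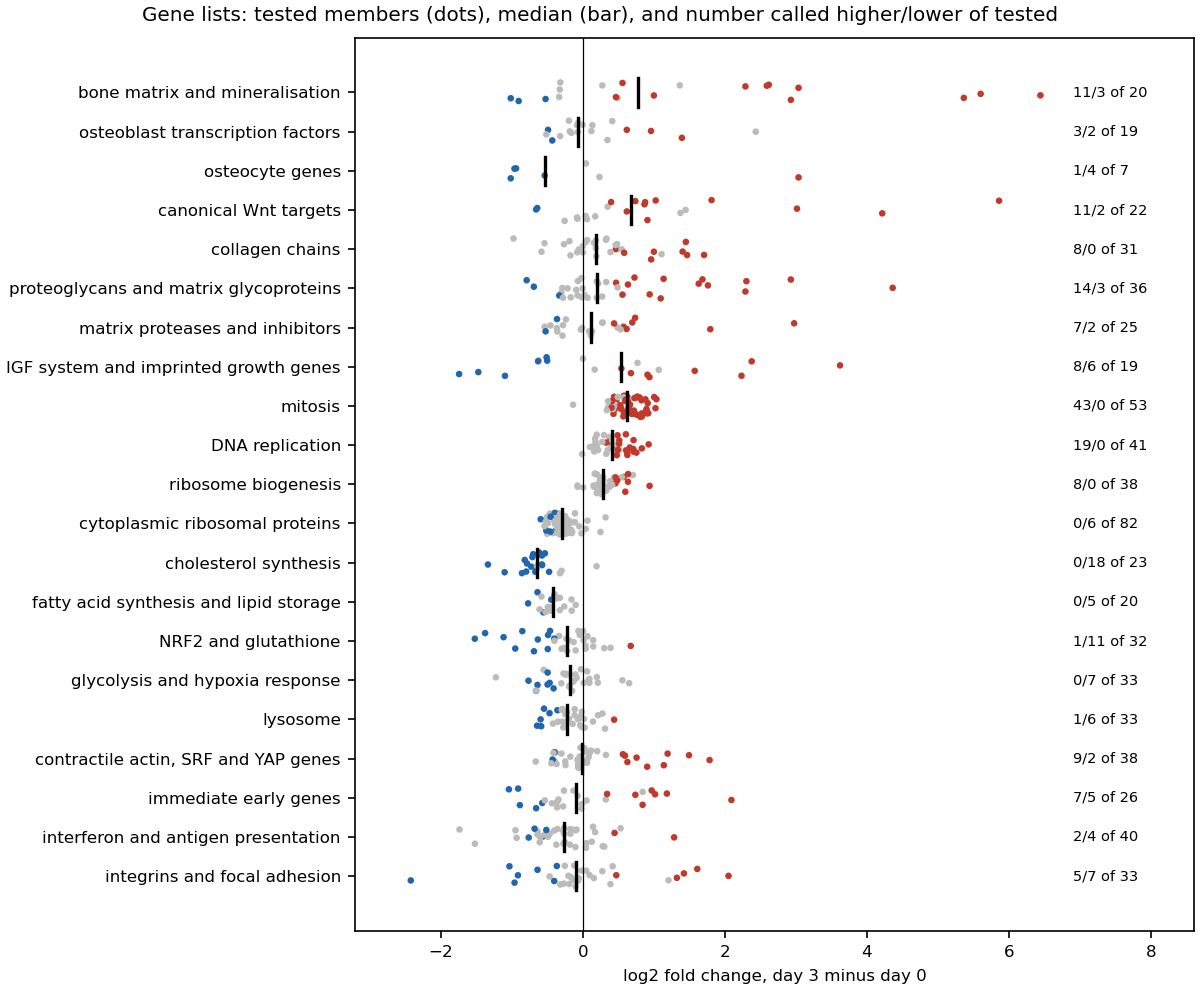
Log2 differences of the tested members of each gene list from day 0 to day 3, 1 dot per gene, with called genes coloured and the median of each list marked. Mitosis (43 of 53 called higher) and cholesterol synthesis (18 of 23 called lower) lie almost wholly on opposite sides of 0.

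Genes of bone matrix and mineralisation were among the largest rises. Of the 20 tested, 11 rose and 3 fell, with a median log2 difference of 0.78 against 0.00 over all genes. Alpl, tissue-nonspecific alkaline phosphatase (chromosome 4, 137741733 to 137796384 in GRCm38), was at 0.216 and 0.207 CPM at day 0 and 20.1 and 17.5 CPM at day 3. Both day 3 libraries lay far above both of day 0, where the gene had 4 and 3 counts. With 648 counts at day 3 against 7 at day 0, the ratio of levels was 91.8, with a 95% interval of 44.3 to 229 that covers counting error only (log2 difference 6.44, SE 0.25, adjusted p = 3.74e-06). Ibsp (chromosome 5, 104299171 to 104311469), the bone sialoprotein that seeds mineral, was at 1.46 and 2.7 CPM at day 0 and 91.8 and 73.2 CPM at day 3 (log2 difference 5.36, SE 0.23, adjusted p = 6.43e-06). Levels of Ibsp went on to 396 and 349.6 CPM at day 5. Phex, an endopeptidase whose loss causes phosphate wasting, was at 2.86 and 3.39 CPM at day 0 and 27.3 and 23.2 CPM at day 3 (log2 difference 3.04, SE 0.18, adjusted p = 3.14e-05). Omd, osteomodulin, a small proteoglycan of bone, was at 6.26 and 4.56 CPM at day 0 and 47.2 and 35.1 CPM at day 3 (log2 difference 2.93, SE 0.24, adjusted p = 0.000266). Phospho1, a phosphatase of matrix vesicles that frees phosphate inside them, was at 1.89 and 2.21 CPM at day 0 and 13 and 11.8 CPM at day 3 (log2 difference 2.62, SE 0.19, adjusted p = 0.00012). None of these groups overlapped between the days, as in 55.6% of all tested genes. Alpl, like Bglap, passed the filter of 10 counts through the day 3 libraries alone. Passing in this way favours a higher level at day 3 but does not force a call. Such genes numbered 101, of which 31 were called higher, among them Tnfrsf19, Rnf43, Igf2 and Prlr of the lists below, and 52 passed through day 0 alone, of which 1 was called lower.

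Bglap, osteocalcin, had 3 and 0 counts at day 0 and 95 and 65 at day 3, a ratio of 52.9 with a counting interval of 17.8 to 259 (log2 difference 5.60, SE 0.47, adjusted p = 0.000266). Its near-identical copies Bglap2 and Bglap3 lie next to it, so reads may be split between them and the value is uncertain, as is the log2 difference of 2.59 for Bglap2. Type I collagen, the main protein of bone, moved less. Col1a1 was at 2547 and 2712 CPM at day 0 and 5178 and 5238 CPM at day 3 (log2 difference 1.002, SE 0.12, adjusted p = 0.00133), and Sparc, a collagen-binding glycoprotein, rose by 0.56 on the log2 scale. Col1a2, the partner chain, was at 5037 and 5251 CPM at day 0 and 6958 and 7112 CPM at day 3 (log2 difference 0.47, SE 0.12, adjusted p = 0.039), and its call was lost in every fit that left out 1 knockdown library (adjusted p up to 0.207).

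The mineral-binding phosphoproteins Spp1 and Dmp1 ran the other way. Spp1, osteopontin, was at 4186 and 3794 CPM at day 0 and 2227 and 1999 CPM at day 3 (log2 difference -0.90, SE 0.12, adjusted p = 0.00246). Dmp1, dentin matrix protein 1, a regulator of mineral and phosphate made most by osteocytes, was at 127 and 106 CPM at day 0 and 62.7 and 51.5 CPM at day 3 (log2 difference -1.01, SE 0.14, adjusted p = 0.00229). Both days stood apart for each gene, as in 55.6% of all tested genes. The single library of day 10 held 5734 CPM of Spp1 and 176 CPM of Dmp1, above both earlier days. Ank, a transporter that exports the mineral inhibitor pyrophosphate, fell by 0.52 on the log2 scale. Of 7 tested genes listed for osteocytes, the cells that osteoblasts become once buried in matrix, Phex rose and 4 fell, namely Dmp1, Capg, Ackr3 and Pdpn (-0.96, -0.94 and -0.54 for the last 3), with a list median of -0.54. Sost, the sclerostin gene of mature osteocytes, had 0 and 0 counts at day 0 and 1 and 1 at day 3.

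**Figure D3:**
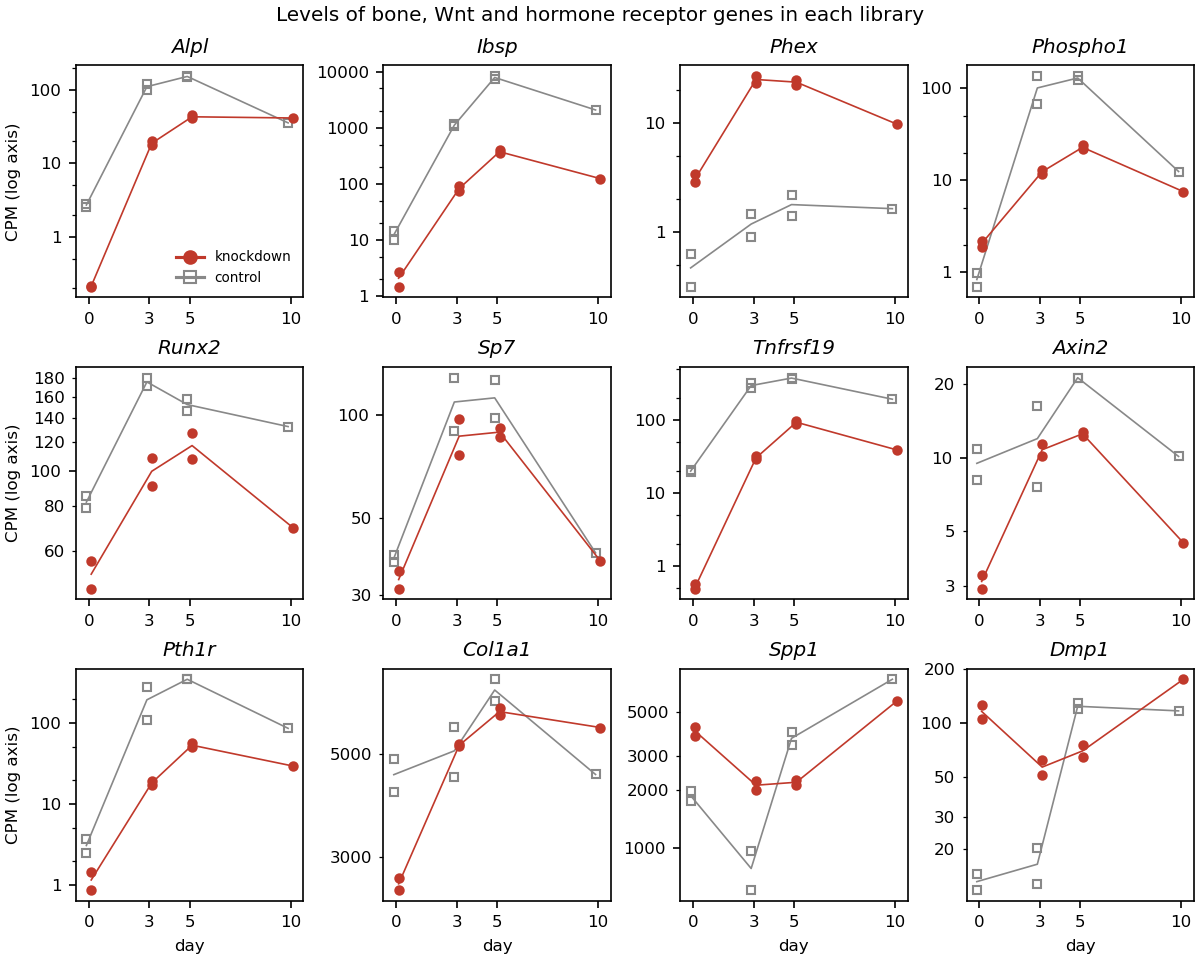
Levels of selected bone and Wnt genes in each library by day (log axes, CPM), with filled red circles for the libraries labelled knockdown, open grey squares for control and lines through the means. Alpl, Ibsp and Tnfrsf19 climb from day 0 to day 3 in both conditions, and the knockdown libraries of Spp1 and Dmp1 drop before the day 10 library lies above them.

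Among 19 tested transcription factors of the osteoblast lineage, Sp7, Runx2 and Twist1 rose, while Runx3 and Dlx5 fell (-0.49 and -0.43), and the list median was -0.06. Sp7, osterix, which acts downstream of Runx2, was at 31.3 and 35.2 CPM at day 0 and 76.3 and 96.9 CPM at day 3 (log2 difference 1.40, SE 0.14, adjusted p = 0.000528). Runx2, the factor without which no bone forms in the mouse, was at 56.2 and 47.2 CPM at day 0 and 109 and 90.5 CPM at day 3 (log2 difference 0.96, SE 0.14, adjusted p = 0.00309). Twist1, a basic helix-loop-helix factor that binds Runx2 and holds it back, was at 40.6 and 33.2 CPM at day 0 and 59.3 and 53 CPM at day 3 (log2 difference 0.62, SE 0.13, adjusted p = 0.0156), with adjusted p of 0.0999 without day 0 replicate 2 and 0.0928 without day 3 replicate 1. Both lower calls were lost in each fit without a library of day 0 or day 3, and with GC offsets the list counted 5 higher and 0 lower. Mef2c, a MADS-box factor of bone and muscle, was at 25.6 and 27.5 CPM at day 0 and 32.6 and 34.2 CPM at day 3 (log2 difference 0.35, SE 0.11, adjusted p = 0.0711) and did not pass the test.

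Of 31 collagen chains tested, 8 rose and 0 fell (median 0.19), with 1 lower at an unadjusted p below 0.05 and 0 lower by DESeq2 and limma. The risers, each with its log2 difference, were Col24a1 1.71, Col3a1 1.47, Col8a1 1.45, Col11a1 1.41, Col1a1 1.002, Col27a1 0.96, Col16a1 0.58 and Col1a2 0.47. Col3a1, the fibrillar chain of soft, early matrix, was at 778 and 728 CPM at day 0 and 2089.8 and 2036 CPM at day 3 (log2 difference 1.47, SE 0.11, adjusted p = 0.000134). Col11a1, a fibrillar chain that nucleates collagen fibrils, was at 121 and 105 CPM at day 0 and 321 and 271 CPM at day 3 (log2 difference 1.41, SE 0.12, adjusted p = 0.000302). Levels of each at day 5 lay near those of day 3, at 2263 and 2309 CPM and 318 and 288 CPM.

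Of 36 proteoglycans and matrix glycoproteins, 14 rose and 3 fell (median 0.21). Npnt, nephronectin (chromosome 3, 132881745 to 132950291), an integrin ligand of basement membranes that is also made by osteoblasts, was at 44.5 and 46.1 CPM at day 0 and 907 and 935 CPM at day 3 (log2 difference 4.36, SE 0.13, adjusted p = 1.01e-06). It had the smallest p of all genes in the step, and day 5 held 1345 and 1534 CPM. Tnc, tenascin C, an adhesion-modulating glycoprotein, was at 82.4 and 92.5 CPM at day 0 and 419 and 427 CPM at day 3 (log2 difference 2.29, SE 0.11, adjusted p = 9.35e-06). Lum, lumican, a small leucine-rich proteoglycan that spaces collagen fibrils, was at 24.9 and 27.2 CPM at day 0 and 129 and 126 CPM at day 3 (log2 difference 2.30, SE 0.10, adjusted p = 6.8e-06). The other risers, with their log2 differences, were Omd 2.93, Tnn 1.76, Postn 1.69, Aspn 1.63, Ogn 1.14, Fmod 1.10, Fbn2 0.94, Dcn 0.73, Prelp 0.64, Sparc 0.56 and Thbs1 0.47, so that 7 small leucine-rich proteoglycans, among them decorin, fibromodulin, asporin and osteoglycin, rose. Bgn (-0.02) and Podn (0.22) of the same family were not called. The hyaluronan synthase Has2 (-0.79), Fbln2 (-0.69) and the chondroitin sulphate proteoglycan Vcan (-0.33) fell. Their count was 1 without day 0 replicate 1 or day 3 replicate 1.

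Enzymes that process collagen split. Of 33 genes of collagen folding, modification and secretion, 6 rose and 4 fell (median 0.16), where 6.96% of all tested genes rose and 5.82% fell. The risers, with their log2 differences, were the prolyl isomerases and propeptide-cleavage genes Fkbp14 0.97, Fkbp7 0.51, Adamts14 0.80, Adamts2 0.65, Pcolce2 0.48 and Pcolce 0.39. The hydroxylases P3h2 -0.52, P4ha3 -0.41 and P4ha1 -0.41 and the crosslinking enzyme Lox (-0.50) were the fallers. Fkbp14, a prolyl isomerase of the endoplasmic reticulum, was at 40.9 and 37.5 CPM at day 0 and 75.7 and 76.5 CPM at day 3 (log2 difference 0.97, SE 0.10, adjusted p = 0.00058). The higher count was 1 without day 0 replicate 2, 2 without day 0 replicate 1 and 3 without day 3 replicate 2, and the lower count 0 without either library of day 3 and 1 without either library of day 0.

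Matrix proteases and their inhibitors numbered 25, of which 7 rose and 2 fell (median 0.11). Mmp13, collagenase 3, the main interstitial collagenase of mouse bone cells, was at 28 and 26.8 CPM at day 0 and 218 and 209 CPM at day 3 (log2 difference 2.98, SE 0.12, adjusted p = 5.98e-06). Its levels went on to 538 and 463 CPM at day 5 and 3297 CPM in the day 10 library. Adamts1, a protease of proteoglycans, was at 53 and 42.9 CPM at day 0 and 180.1 and 149.5 CPM at day 3 (log2 difference 1.80, SE 0.13, adjusted p = 0.000134). The higher count was 3 without either library of day 0 or day 3 replicate 1, and Mmp13 and Adamts1 kept their calls in each of these fits. The lower count was 0 without any 1 library of day 0 or 3 and 1 without either library of day 5.

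Of 22 genes listed as targets of the canonical Wnt pathway, 11 rose and 2 fell (median 0.68), where 6.96% of all genes rose. Of the 11 risers, 2 (Rnf43 and Tnfrsf19) passed the filter through the day 3 libraries alone, where they are high. The higher count was 7 without day 0 replicate 1. Tnfrsf19 (chromosome 14, 60963875 to 61046490), the TNF receptor family member Troy, a target and modulator of Wnt signalling, was at 0.486 and 0.553 CPM at day 0 and 31.4 and 28.5 CPM at day 3 (log2 difference 5.86, SE 0.19, adjusted p = 1.13e-06). Its level at day 5 was 96.3 and 88.5 CPM. Wif1, a secreted protein that binds Wnt ligands and blocks them, was at 1.62 and 2.7 CPM at day 0 and 16 and 17.9 CPM at day 3 (log2 difference 3.02, SE 0.23, adjusted p = 0.000144). Axin2, the scaffold of the beta-catenin destruction complex and a common readout of the pathway, was at 2.92 and 3.32 CPM at day 0 and 11.4 and 10.2 CPM at day 3 (log2 difference 1.81, SE 0.19, adjusted p = 0.000685). Axin2 and Wif1 act against the pathway, as does Rnf43, an enzyme that removes Wnt receptors from the surface, which rose by 4.22 on the log2 scale. The other risers, with their log2 differences, were Wisp1 1.03, Tnfrsf11b 0.91, Prickle1 0.88, Bmp4 0.87, Myc 0.74, Twist1 0.62 and Ccnd1 0.40, and Fosl1 (-0.66) and Wisp2 (-0.64) fell. These fallers numbered 1 without either library of day 0 or day 3 replicate 1.

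Myc, a growth-promoting factor, was at 23.1 and 29.7 CPM at day 0 and 42.2 and 45 CPM at day 3 (log2 difference 0.74, SE 0.14, adjusted p = 0.0099), with an adjusted p of 0.0625 without day 0 replicate 1. Ccnd1, cyclin D1, was at 682 and 682 CPM at day 0 and 874 and 906 CPM at day 3 (log2 difference 0.40, SE 0.10, adjusted p = 0.034), and its call was lost in every fit that left out 1 knockdown library (adjusted p up to 0.175). Lef1, the DNA-binding partner of beta-catenin, was at 1.57 and 2.14 CPM at day 0 and 2.21 and 1.48 CPM at day 3 (log2 difference 0.04, SE 0.35, adjusted p = 0.96), so its levels overlapped. Of 28 Wnt ligands, receptors and secreted antagonists, 5 rose and 2 fell (median 0.13), where 6.96% of all tested genes rose and 5.82% fell. Here the higher count was 2 without either library of day 0 or day 3 replicate 2 and 3 without day 3 replicate 1. Besides Wif1, the receptor Lrp4 was at 40.0 and 44.3 CPM at day 0 and 73.5 and 78.6 CPM at day 3 (log2 difference 0.87, SE 0.10, adjusted p = 0.00138). Rspo2, an R-spondin that raises Wnt receptor levels, was at 25.5 and 24.1 CPM at day 0 and 11.2 and 12.1 CPM at day 3 (log2 difference -1.08, SE 0.14, adjusted p = 0.00184), and Dkk3, a Dickkopf family member, at 658 and 613 CPM at day 0 and 402 and 371 CPM at day 3 (log2 difference -0.70, SE 0.10, adjusted p = 0.00338).

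Receptors for hormones and growth factors had single large rises. Pth1r, the receptor for parathyroid hormone, was at 0.864 and 1.45 CPM at day 0 and 17.3 and 19.1 CPM at day 3 (log2 difference 4.02, SE 0.22, adjusted p = 2.47e-05). Of 22 tested hormone receptors and osteoclast-coupling genes 6 rose and 4 fell (median 0.00), and the vitamin D receptor Vdr (-0.63) and the retinoic acid receptors Rara (-0.59) and Rarg (-0.60) were among the fallers. Their count was 1 without day 3 replicate 1 and 2 without day 0 replicate 2. Tnfrsf11b, osteoprotegerin, the decoy that blocks the osteoclast cytokine RANKL, was at 40.0 and 38.5 CPM at day 0 and 73 and 73.1 CPM at day 3 (log2 difference 0.91, SE 0.09, adjusted p = 0.000685). Tnfsf11, which encodes RANKL, had 0 counts in the 4 libraries. Of 18 FGF pathway genes 4 rose and 1 fell (median 0.35). Here the higher count was 2 without day 0 replicate 2 or day 3 replicate 1, and the lower count 0 without any 1 library of day 0 or 3. Fgfr3 was at 7.4 and 7.81 CPM at day 0 and 38 and 45.3 CPM at day 3 (log2 difference 2.47, SE 0.14, adjusted p = 3.14e-05). Fgfr2 was at 101 and 113 CPM at day 0 and 265 and 256 CPM at day 3 (log2 difference 1.29, SE 0.10, adjusted p = 0.000163). Both receptors are expressed in bone-forming cells, and day 3 lay above day 0 in each library of both. The days did not overlap in 55.6% of all tested genes.

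The insulin-like growth factor system and imprinted growth genes moved both ways, with 8 of 19 higher, 6 lower and a median of 0.54. Mest, a paternally expressed gene active in mesoderm, was at 7.56 and 7.68 CPM at day 0 and 40.5 and 37.8 CPM at day 3 (log2 difference 2.38, SE 0.12, adjusted p = 1.96e-05). Plagl1, an imprinted zinc finger factor, was at 14.6 and 16.4 CPM at day 0 and 76.8 and 67 CPM at day 3 (log2 difference 2.23, SE 0.12, adjusted p = 2.3e-05). The ligands Igf2 and Igf1 rose by 3.62 and 0.68 on the log2 scale, the substrate Irs1 by 0.91, the binding proteins Igfbp5 and Igfbp4 by 0.94 and 0.54, and the protease Pappa2 by 1.58. Igf2 passed the filter through the day 3 libraries alone, where it is high. Igfbp6, a binding protein that prefers IGF2, was at 447 and 435 CPM at day 0 and 124 and 137 CPM at day 3 (log2 difference -1.74, SE 0.10, adjusted p = 3.14e-05). H19 (-1.47), Pappa (-1.09), Igfbp7 (-0.63) and the receptors Igf2r (-0.51) and Igf1r (-0.50) also fell. The lower count was 3 without either library of day 3 or day 0 replicate 1.

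Of 41 BMP and TGF-beta genes, 5 rose and 3 fell (median 0.03), where 6.96% of all tested genes rose and 5.82% fell. Here the higher count was 2 without day 0 replicate 2 and 3 without either library of day 3 or day 0 replicate 1. The ligand Bmp4, which drives bone formation, was at 12.9 and 12.8 CPM at day 0 and 24.4 and 22 CPM at day 3 (log2 difference 0.87, SE 0.13, adjusted p = 0.00445). Chrdl1, an antagonist that binds BMPs, was at 442 and 361 CPM at day 0 and 1121 and 982 CPM at day 3 (log2 difference 1.41, SE 0.14, adjusted p = 0.000535). Bmper, a further BMP-binding protein, is not a member of this list and is not in its counts. It was at 0.594 and 1.24 CPM at day 0 and 9.05 and 11.1 CPM at day 3 (log2 difference 3.51, SE 0.33, adjusted p = 0.000421). Tgfbi, a matrix protein induced by TGF-beta, was at 124 and 132 CPM at day 0 and 64.3 and 70.5 CPM at day 3 (log2 difference -0.91, SE 0.10, adjusted p = 0.000861). Among 11 tested Notch genes edgeR called 0 in each direction, with 2 at an unadjusted p below 0.05, and DESeq2 and limma also called 0, while 1 was called higher with GC offsets and 1 lower without day 3 replicate 1.

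Most mitosis genes rose. Of 53 tested, 43 rose and 0 fell, with a median log2 difference of 0.63 against 0.00 over all genes, and none was lower at an unadjusted p below 0.05, by DESeq2 or by limma. Cenpe, a kinesin that captures microtubules at the kinetochore, was at 227 and 199 CPM at day 0 and 475 and 389.9 CPM at day 3 (log2 difference 1.04, SE 0.12, adjusted p = 0.00139). Kif20b, a kinesin of cytokinesis, was at 114 and 105 CPM at day 0 and 239 and 201 CPM at day 3 (log2 difference 1.02, SE 0.12, adjusted p = 0.0011). Bub1, a kinase of the spindle checkpoint, was at 20.8 and 21.2 CPM at day 0 and 41.4 and 37.3 CPM at day 3 (log2 difference 0.92, SE 0.12, adjusted p = 0.00182). Mki67, the proliferation marker Ki-67, was at 477 and 479 CPM at day 0 and 861 and 797 CPM at day 3 (log2 difference 0.81, SE 0.10, adjusted p = 0.00153). Levels of these 4 genes did not overlap between the days, as in 55.6% of all tested genes. The smallest calls were Anln (0.40), Kif20a (0.41) and Ccnb2 (0.43), so the calls span 0.40 to 1.04 on the log2 scale. The count was 26 without day 0 replicate 1 and 27 without day 0 replicate 2 or day 3 replicate 1, 46 with GC offsets and 2 with the spread shared over all 14 libraries.

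Averaged over the mitosis list, the log2 level relative to the day 0 mean was 0.65 and 0.58 in the day 3 libraries, 0.29 and 0.24 in those of day 5 and -1.61 in the single library of day 10. DNA replication genes followed, with 19 of 41 higher, 0 lower and a median of 0.42, with 0 lower at an unadjusted p below 0.05, by DESeq2 or by limma. Their count was 5 without day 0 replicate 2, 6 without day 3 replicate 1, 7 without day 3 replicate 2 and 8 without day 0 replicate 1, and 0 with the spread shared over all 14 libraries. Tk1, thymidine kinase, was at 15.4 and 13 CPM at day 0 and 22.4 and 31.5 CPM at day 3 (log2 difference 0.93, SE 0.20, adjusted p = 0.0174), with an adjusted p of 0.088 without day 0 replicate 2 and 0.0771 without day 3 replicate 2. Of 23 genes of G1 cyclins, CDK inhibitors and E2F factors 8 rose (median 0.38), with log2 differences of Ccne2 1.12, Ccnd2 0.77, E2f8 0.75, Myc 0.74, Rbl1 0.66, Cdk6 0.54, E2f7 0.48 and Ccnd1 0.40, and 0 fell, with 0 lower at an unadjusted p below 0.05, by DESeq2 or by limma. Ccne2, cyclin E2, was at 10.3 and 12.8 CPM at day 0 and 22.6 and 26.7 CPM at day 3 (log2 difference 1.12, SE 0.16, adjusted p = 0.00342). Of 38 genes of ribosome biogenesis 8 rose (median 0.29) and 0 fell, again with 0 lower at an unadjusted p below 0.05, by DESeq2 or by limma. The G1 count was 2 without day 0 replicate 1 and 5 without day 3 replicate 1, and that of ribosome biogenesis 2 without day 0 replicate 2 or day 3 replicate 1 and 3 without day 0 replicate 1.

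The promoters of mitosis genes share letters known from textbook cell cycle promoters, the CCAAT box bound by NF-Y and the TTTGAA element called the cell cycle homology region, and those of Cenpf and Ttk show both. Sequences are from RefSeq (GRCm38.p6), 250 bases before to 50 after each start, written in the direction of the gene, with every CCAAT or TTTGAA on either strand in capitals (ATTGG and TTCAAA on the other strand). Cenpf, a kinetochore protein, lies on the minus strand (chr1:189688037-189688336), and Ttk, a spindle checkpoint kinase, on the plus strand (chr9:83834439-83834738). On the log2 scale Cenpf rose by 0.89 and Ttk by 0.83.
Cenpf: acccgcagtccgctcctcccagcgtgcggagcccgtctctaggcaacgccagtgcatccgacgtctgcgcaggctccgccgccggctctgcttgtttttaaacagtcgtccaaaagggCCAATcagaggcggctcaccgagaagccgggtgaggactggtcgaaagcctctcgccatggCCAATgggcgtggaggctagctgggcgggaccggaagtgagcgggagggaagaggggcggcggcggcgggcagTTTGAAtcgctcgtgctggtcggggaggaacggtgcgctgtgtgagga
Ttk: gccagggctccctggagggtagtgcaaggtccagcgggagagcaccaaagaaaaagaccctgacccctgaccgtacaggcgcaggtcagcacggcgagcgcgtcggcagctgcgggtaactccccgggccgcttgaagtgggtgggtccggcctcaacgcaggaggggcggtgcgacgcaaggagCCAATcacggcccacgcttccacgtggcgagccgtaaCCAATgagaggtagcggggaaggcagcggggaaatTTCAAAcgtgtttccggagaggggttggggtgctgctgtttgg

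In Cenpf the CCAAT matches begin 132 and 71 bases before the start and TTTGAA at base 3 after it, and in Ttk the CCAAT matches begin 65 and 28 bases before the start and TTCAAA at base 8. TTTGAA on either strand was present in 70.5% of the 44 mitosis promoters found in the RefSeq table, against 11.4% of the 9016 promoters of tested genes, 20.1% of those of risers and 7.99% of those of fallers. CCAAT was present in 70.5% of mitosis promoters against 39.4% of all. TTCCCGC or TTGGCGC, letters bound by E2F factors, were present in 51.5% of the 33 promoters of DNA replication genes against 12.8% of all. Matches are descriptions of these windows and not sites shown to be bound.

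Most cholesterol synthesis genes fell. Of 23 tested, 18 fell and 0 rose, with a median of -0.64 against 0.00 over all genes, and 0 were higher at an unadjusted p below 0.05, by DESeq2 or by limma. Mvd, which makes isopentenyl diphosphate from mevalonate diphosphate, was at 37.9 and 43.1 CPM at day 0 and 14.5 and 17.4 CPM at day 3 (log2 difference -1.33, SE 0.14, adjusted p = 0.000739). Tm7sf2, a sterol reductase, was at 16.1 and 13.6 CPM at day 0 and 7.34 and 6.34 CPM at day 3 (log2 difference -1.10, SE 0.18, adjusted p = 0.00527). Acat2, which joins acetyl groups at the head of the pathway, was at 86.1 and 88.7 CPM at day 0 and 47.1 and 51.2 CPM at day 3 (log2 difference -0.82, SE 0.10, adjusted p = 0.00147). Levels of these 3 genes did not overlap between the days, again as in 55.6% of all tested genes. Other fallers ranged from -0.86 for Lss to -0.47 for Mvk, and included the squalene enzymes Sqle (-0.72) and Fdft1 (-0.70), the regulator Insig1 (-0.57) and Srebf2 (-0.67), the transcription factor that drives the pathway. The count was 11 without day 0 replicate 2, and 1 with the spread shared over all 14 libraries. Averaged over the list, the log2 level relative to the day 0 mean was -0.70 and -0.60 in the day 3 libraries, -0.87 and -0.83 at day 5 and -0.97 in the day 10 library.

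CCAAT on either strand was present in 88.2% of the 17 cholesterol synthesis promoters found in the RefSeq table, against 39.4% of all and 37.4% of those of fallers. The promoters of the 2 genes that fell most show it, Mvd on the minus strand (chr8:122443373-122443672) with matches beginning 60 and 27 bases before the start, and Tm7sf2 on the minus strand (chr19:6067801-6068100) with a match beginning 47 bases before it. Capitals mark CCAAT or its complement ATTGG.
Mvd: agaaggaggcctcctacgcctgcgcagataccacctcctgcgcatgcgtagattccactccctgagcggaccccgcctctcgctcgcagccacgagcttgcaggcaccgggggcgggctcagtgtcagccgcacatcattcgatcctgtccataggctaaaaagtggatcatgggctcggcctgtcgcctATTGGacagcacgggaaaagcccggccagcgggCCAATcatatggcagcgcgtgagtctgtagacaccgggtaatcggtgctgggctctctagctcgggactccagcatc
Tm7sf2: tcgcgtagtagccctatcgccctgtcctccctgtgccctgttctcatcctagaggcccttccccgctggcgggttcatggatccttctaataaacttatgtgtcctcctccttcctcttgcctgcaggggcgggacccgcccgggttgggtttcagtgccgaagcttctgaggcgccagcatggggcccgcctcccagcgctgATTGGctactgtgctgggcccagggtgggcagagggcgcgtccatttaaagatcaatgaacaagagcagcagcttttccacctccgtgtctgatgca

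**Figure D4:**
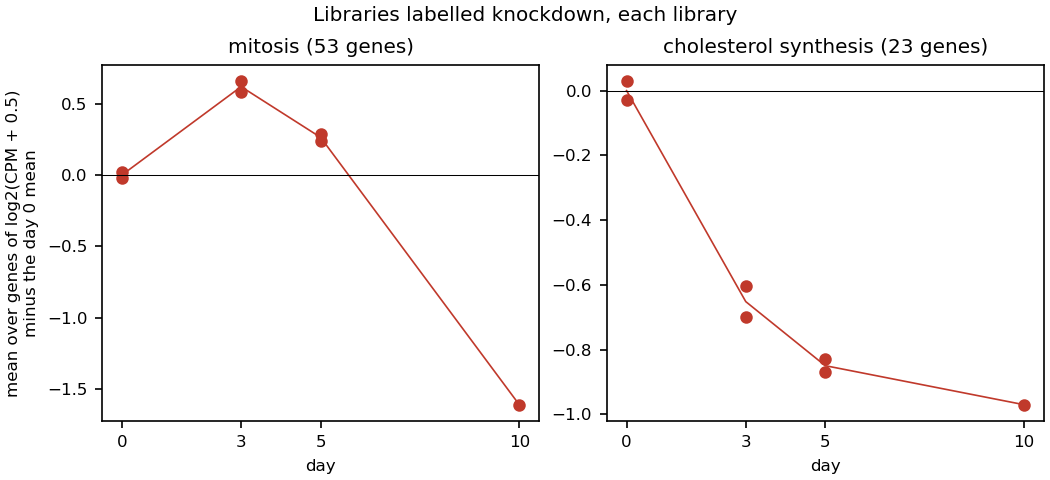
Mean log2 level of the members of selected gene lists in each library labelled knockdown, relative to their day 0 mean, by day, with 1 point per library and lines through the means of the days. Mitosis genes stand at 0.65 and 0.58 at day 3 and at -1.61 in the day 10 library, while cholesterol synthesis genes stay low from day 3 (-0.70 and -0.60) to day 10 (-0.97).

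In the lists of lipid and energy genes fewer members passed the test. Of 20 genes of fatty acid synthesis and lipid storage 5 fell (median -0.42) and 0 rose, with 0 higher at an unadjusted p below 0.05, by DESeq2 or by limma. Scd1, stearoyl-CoA desaturase, was at 276 and 289 CPM at day 0 and 179 and 180.4 CPM at day 3 (log2 difference -0.64, SE 0.09, adjusted p = 0.00347), and Plin2, the coat protein of lipid droplets, at 46.8 and 47.8 CPM at day 0 and 27.1 and 27.8 CPM at day 3 (log2 difference -0.77, SE 0.11, adjusted p = 0.0037). The lower count of this list was 2 without either library of day 3 or day 0 replicate 2 and 3 without day 0 replicate 1. Of 33 genes of glycolysis and the hypoxia response 7 fell (median -0.18) and 0 rose by edgeR, DESeq2 and limma, with 2 higher at an unadjusted p below 0.05. Their log2 differences were Ndrg1 -0.76, Pfkp -0.66, Aldoa -0.64, Pkm -0.49, Pdk1 -0.49, Gpi1 -0.46 and P4ha1 -0.41, and the count was 2 without day 0 replicate 2 or day 3 replicate 1 and 3 without day 0 replicate 1 or day 3 replicate 2. Pfkp, a phosphofructokinase, was at 66.5 and 65.2 CPM at day 0 and 41.1 and 41.6 CPM at day 3 (log2 difference -0.66, SE 0.10, adjusted p = 0.00456).

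Genes of the antioxidant response driven by NRF2 fell in 11 of 32 cases and rose in 1 (median -0.22). Nqo1, a quinone reductase, was at 169.6 and 176 CPM at day 0 and 57.3 and 62.2 CPM at day 3 (log2 difference -1.52, SE 0.10, adjusted p = 8.01e-05). Hmox1, heme oxygenase, was at 42.9 and 41.6 CPM at day 0 and 17.2 and 15 CPM at day 3 (log2 difference -1.37, SE 0.14, adjusted p = 0.000541). Ftl1, the light chain of ferritin, was at 605 and 476 CPM at day 0 and 272 and 222 CPM at day 3 (log2 difference -1.11, SE 0.15, adjusted p = 0.00206). The other fallers, with their log2 differences, were Gsta4 -0.95, Gstm1 -0.85, Pgd -0.69, Fth1 -0.63, Gpx1 -0.49, G6pdx -0.49, Srxn1 -0.46 and Tkt -0.40, which take in glutathione enzymes, the heavy chain of ferritin and enzymes of the pentose phosphate path, and Sod3 rose by 0.68, a call that was 0 without either library of day 0 or day 3 replicate 1. Some of these genes have processed copies in the mouse genome, ferritin among them, so their counts may be shared. The lower count was 6 without either library of day 0 or day 3 replicate 1. Mt1 and Mt2, metallothioneins that bind zinc and copper, also fell. Mt1 was at 102 and 123 CPM at day 0 and 38.7 and 50.1 CPM at day 3 (log2 difference -1.33, SE 0.16, adjusted p = 0.00126). The level of Mt2 was 35.1 and 28.1 CPM at day 0 and 11.6 and 9.3 CPM at day 3 (log2 difference -1.58, SE 0.16, adjusted p = 0.000568).

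Among called genes with a mean of at least 5 CPM, Itgb7 and Spon2 fell most. Itgb7, an integrin chain best known from lymphocytes, was at 17.9 and 20.2 CPM at day 0 and 3.02 and 4.09 CPM at day 3 (log2 difference -2.42, SE 0.21, adjusted p = 0.000302). Spon2, a secreted spondin, was at 255 and 260.5 CPM at day 0 and 46.1 and 50.5 CPM at day 3 (log2 difference -2.40, SE 0.12, adjusted p = 1.39e-05). Dio3, which inactivates thyroid hormone and is imprinted, was at 24.1 and 17 CPM at day 0 and 4.68 and 4.3 CPM at day 3 (log2 difference -2.18, SE 0.22, adjusted p = 0.000554). Anxa8, an annexin, was at 99.6 and 112 CPM at day 0 and 23.8 and 26.7 CPM at day 3 (log2 difference -2.05, SE 0.13, adjusted p = 3.75e-05). Krt14, a keratin of basal epithelium, was at 45.9 and 41.6 CPM at day 0 and 15.1 and 12.5 CPM at day 3 (log2 difference -1.64, SE 0.20, adjusted p = 0.00138). Ly6a, the stem cell antigen Sca-1, was at 22.9 and 22.7 CPM at day 0 and 8.65 and 7.05 CPM at day 3 (log2 difference -1.51, SE 0.18, adjusted p = 0.00124). Gpnmb, a transmembrane glycoprotein of osteoblasts and osteoclasts, which is not among the 15 largest falls, was at 222 and 269 CPM at day 0 and 90.7 and 95.3 CPM at day 3 (log2 difference -1.38, SE 0.12, adjusted p = 0.000346). In none of these genes did the days overlap, as in 55.6% of all tested genes, and each kept its call in every fit without 1 library.

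The remaining members of the 15 largest falls were Igfbp6, Mt2 and Nqo1, given above, and Dact2, Plxdc1, Tinagl1, Fam19a5, Rgs4 and Hsd3b7, from -1.74 for Igfbp6 to -1.47 for Hsd3b7 on the log2 scale. Fam19a5 lost its call in a pair of fits without 1 library (adjusted p of 0.114 without day 0 replicate 1 and 0.0742 without day 3 replicate 2). Of the 15 largest rises, Angpt1 and Megf6 were not given above and belong to no list described so far. Angpt1, angiopoietin 1, which steadies blood vessels, was at 3.62 and 5.05 CPM at day 0 and 29.4 and 24 CPM at day 3 (log2 difference 2.66, SE 0.18, adjusted p = 8.01e-05). Megf6, a secreted protein with EGF-like repeats, was at 1.57 and 3.46 CPM at day 0 and 11.5 and 15.2 CPM at day 3 (log2 difference 2.46, SE 0.30, adjusted p = 0.00142).

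Actin and adhesion genes divided. Of 38 contractile, SRF and YAP genes 9 rose and 2 fell (median -0.01). Tagln, the actin-binding protein transgelin, was at 21.6 and 23 CPM at day 0 and 73.7 and 78.4 CPM at day 3 (log2 difference 1.79, SE 0.11, adjusted p = 3.26e-05). Acta2, smooth muscle actin, was at 578 and 625 CPM at day 0 and 1280.1 and 1444 CPM at day 3 (log2 difference 1.20, SE 0.12, adjusted p = 0.000568), and Actg2, its enteric relative, at 16 and 17.5 CPM at day 0 and 44.8 and 48.7 CPM at day 3 (log2 difference 1.50, SE 0.13, adjusted p = 0.000266). Tpm1, tropomyosin 1, was at 3762 and 3356 CPM at day 0 and 8218 and 7319 CPM at day 3 (log2 difference 1.14, SE 0.14, adjusted p = 0.00142). The other risers, with their log2 differences, were Ctgf 0.91, Mylk 0.76, Myl9 0.63, Cnn2 0.59 and Cyr61 0.57, and Axl (-0.42) and Lima1 (-0.40) fell. The higher count was 5 without day 0 replicate 1, and the lower count 0 without any 1 library of day 0 or 3 and 1 without either library of day 5. The CArG box bound by SRF was present in 18.8% of the 32 promoters of this list found in the RefSeq table against 1.30% of all.

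Of 33 integrins and focal adhesion genes 5 rose and 7 fell (median -0.10). Itga1, a collagen-binding chain, was at 3.02 and 3.94 CPM at day 0 and 13.9 and 14.5 CPM at day 3 (log2 difference 2.05, SE 0.19, adjusted p = 0.00047). Itga9, a chain that binds tenascin C, was at 3.08 and 3.04 CPM at day 0 and 8.4 and 10.2 CPM at day 3 (log2 difference 1.61, SE 0.20, adjusted p = 0.00155). Together with Itga8 (1.33), the nephronectin receptor chain, 3 alpha chains rose, while Itgb7, Itga6 (-1.03), Itgb3 (-0.91), Itgb5 (-0.64) and the adaptor Pxn (-0.96) were among the fallers. The fallers numbered 4 without day 0 replicate 2 or day 3 replicate 1. Of 19 cadherins, connexins and pannexins 3 rose and 3 fell, N-cadherin Cdh2 at 0.89 and Panx3 at 1.79 among the former. Higher calls numbered 1 without day 0 replicate 2, and the lower 1 without day 0 replicate 2 or day 3 replicate 1. Cdh1, E-cadherin, was at 5.35 and 8.02 CPM at day 0 and 3.07 and 3.66 CPM at day 3 (log2 difference -0.97, SE 0.27, adjusted p = 0.0463), and its call was lost by DESeq2 and limma and without each knockdown library except day 0 replicate 1 (adjusted p up to 0.286). Among 25 spectraplakin and microtubule plus-end genes Tacc3 rose (0.57) and Phldb1 fell (-0.59), with a median of 0.01. Higher calls numbered 0 without day 0 replicate 2 or day 3 replicate 1, and the lower 2 without either library of day 5.

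Immediate early genes also split, with 7 of 26 higher, 5 lower and a median of -0.10. Among them the higher count was 4 without either library of day 0 or day 3 replicate 1. The orphan nuclear receptors Nr4a3, Nr4a1 and Nr4a2 rose by 2.09, 1.18 and 0.84, and Egr1, a zinc finger factor, was at 14.2 and 15.3 CPM at day 0 and 27.4 and 31.8 CPM at day 3 (log2 difference 1.02, SE 0.15, adjusted p = 0.00327). Jund and Jun, partners in AP-1, fell (-1.04 and -0.91), and Klf4 was at 125 and 132 CPM at day 0 and 69.1 and 68.7 CPM at day 3 (log2 difference -0.88, SE 0.09, adjusted p = 0.00069). Of 40 interferon and antigen presentation genes 2 rose and 4 fell (median -0.27), where 6.96% of all tested genes rose and 5.82% fell. Gbp2, a guanylate-binding protein induced by interferon, was at 79.8 and 67.6 CPM at day 0 and 45.3 and 40.7 CPM at day 3 (log2 difference -0.76, SE 0.12, adjusted p = 0.00409). Parp14, Stat2 and Ifi35, the other fallers, each lost their call in fits without single libraries of days 0 and 3. The interferon count was 1 without day 0 replicate 1 or day 3 replicate 1 and 2 without day 0 replicate 2 or day 3 replicate 2 for lower calls, and for higher calls 0 without day 0 replicate 2 or day 3 replicate 1 and 1 without either library of day 5 or day 0 replicate 1 or day 3 replicate 2. Of 33 lysosomal genes 1 rose and 6 fell (median -0.22), beside the same shares of 6.96% and 5.82% over all tested genes. Here the lower count was 2 without day 0 replicate 2 and 3 without either library of day 3 or day 0 replicate 1, and the higher 0 without any 1 library of day 0 or 3. Of 21 angiogenic factors 5 rose, led by Angpt1 and the semaphorin and VEGF co-receptor Nrp2 (1.82), and 6 fell. Higher calls numbered 3 without day 3 replicate 1, and the lower 1 without day 3 replicate 1, 2 without day 0 replicate 2 and 3 without day 3 replicate 2.

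Genes for cytoplasmic ribosomal proteins lay mostly below 0. Of 82 tested, 78 had a log2 difference below 0 and the median was -0.29, but 6 passed as lower and 0 as higher, with 40 lower and 0 higher at an unadjusted p below 0.05. DESeq2 called 12 lower and 0 higher and limma 1 lower and 0 higher. The lower count was 0 without either library of day 0 or day 3 replicate 2 and 1 without day 3 replicate 1. Many of these genes have processed copies, and their share of the reads differed between the days as given above. Of 13 mitochondrially encoded protein genes 3 rose (median 0.38), namely mt-Co2, mt-Nd2 and mt-Nd3. Their number was 0 without either library of day 0 and 1 without either library of day 3. Their GC content is low, at a median of 37.1% against 49.4% over all genes, and with GC offsets 0 of the 13 were called and the median was 0.10. Of 75 nuclear subunits of oxidative phosphorylation 1 fell, Cox7a2l, at 377 and 328 CPM at day 0 and 227 and 201 CPM at day 3 (log2 difference -0.71, SE 0.11, adjusted p = 0.00456), with a list median of -0.12 and a lower count of 2 without day 3 replicate 2 or day 5 replicate 1.

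Calls in the remaining lists are to be read beside 6.96% higher and 5.82% lower over all tested genes. The unfolded protein response had 2 of 27 lower, Xbp1 and Crebrf, the amino acid stress response 5 of 25 higher and 2 lower, p53 targets 1 of 25 higher and 2 lower, complement 3 of 9 higher and 1 lower, and chemokines and cytokines 2 of 15 higher and 2 lower. Counts of the unfolded protein response were 1 without any 1 library of day 0 or 3. Those of the amino acid stress response were 2 without day 0 replicate 1 or day 3 replicate 2 and 3 without day 0 replicate 2 for higher calls and 1 without any 1 library of day 0 or 3 for lower ones. For p53 targets they were 0 without any 1 library of day 0 or 3 for higher calls, and for lower ones 0 without day 3 replicate 1 and 1 without any 1 library of day 0 or 5 or day 3 replicate 2. For complement they were 1 without either library of day 0 or day 3 replicate 2 for higher calls and 0 without day 0 replicate 2 or day 3 replicate 1 for lower ones. Chemokines and cytokines had 0 without day 0 replicate 2 or day 3 replicate 2 and 1 without day 0 replicate 1 or day 3 replicate 1 for higher calls and 1 without any 1 library of day 0 or 3 for lower ones. Il33, an alarmin cytokine, led the chemokines and cytokines with a log2 difference of 2.44. Phgdh, the entry enzyme of serine synthesis, was at 90.5 and 99.8 CPM at day 0 and 154 and 166 CPM at day 3 (log2 difference 0.77, SE 0.10, adjusted p = 0.00228), and Mthfd2, a mitochondrial folate enzyme, at 44.4 and 44 CPM at day 0 and 74.9 and 83.6 CPM at day 3 (log2 difference 0.86, SE 0.10, adjusted p = 0.00136). Among 7 Hox genes edgeR called 0, with 0 at an unadjusted p below 0.05, and DESeq2 and limma called 0.

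The early step was then set against the next one, from day 3 to day 5, by a test of the difference between both steps, which share the day 3 libraries. It called 261 genes (2.13%), 182 with a larger early value (1.48%) and 79 with a smaller one (0.644%). From day 3 to day 5 itself, edgeR called 21 genes higher (0.171%) and 0 lower, with 528 lower at an unadjusted p below 0.05, and no other tool was run on it. Alpl had the highest difference of steps among the genes named, 5.26 (SE 0.34, adjusted p = 0.000389), followed by Tnfrsf19 at 4.25 (SE 0.26, adjusted p = 0.000377) and Npnt at 3.73 (SE 0.19, adjusted p = 0.000107). Alpl and Tnfrsf19 passed the filter through the day 3 libraries alone. Genes named for this test had also to be called from day 0 to day 3. Their values and p in it are therefore not independent of how they were chosen. Alpl went from 20.1 and 17.5 CPM at day 3 to 45.3 and 41.1 CPM at day 5. Phex, at 3.13 (SE 0.26, adjusted p = 0.00185), was at 25 and 22.7 CPM at day 5, where its day 3 levels were 27.3 and 23.2 CPM. The lowest were Itgb7, -2.77 (SE 0.39, adjusted p = 0.0132), Spon2, -2.32 (SE 0.21, adjusted p = 0.00279), and Mt1, -2.25 (SE 0.28, adjusted p = 0.00827). Mt1 was at 77.3 and 91.2 CPM at day 5, above both day 3 libraries. The count of 261 went down to between 20 and 114 in the fits without 1 library, lowest without day 3 replicate 1.

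Whether the step differed between the conditions was tested on all 14 libraries. The interaction test called 37 genes (0.301%), 26 with a higher value in the libraries labelled knockdown (0.212%) and 11 with a lower one (0.0896%), and 1416 at an unadjusted p below 0.05. Without control day 3 replicate 2 it called 600 (4.89%), 361 higher (2.94%) and 239 lower (1.95%), and all of the 37 were among them. Phospho1 was at 0.694 and 0.974 CPM at day 0 and 67.1 and 134 CPM at day 3 in control, so that its rise was smaller in the libraries labelled knockdown (difference -4.31, SE 0.51, adjusted p = 0.0101, or -3.73 with control day 3 replicate 2 left out). Npnt started at 351 and 402 CPM in control and reached 1500.3 and 1335, a smaller rise on the log2 scale (difference 2.43, SE 0.25, adjusted p = 0.00591, or 2.35 with control day 3 replicate 2 left out). Tnfrsf19 was at 19.2 and 20.3 CPM at day 0 and 314 and 273 CPM at day 3 in control (difference 1.94, SE 0.28, adjusted p = 0.0221, or 1.85 with control day 3 replicate 2 left out). For both Npnt and Tnfrsf19 the control libraries lay above the knockdown libraries at both days.

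For 5 further genes the levels ran in opposite directions in the conditions. Megf6 was at 15 and 16.6 CPM at day 0 and 8.75 and 10.6 CPM at day 3 in control, below its own start, where the libraries labelled knockdown rose (difference 3.14, SE 0.45, adjusted p = 0.0225, or 3.28 with control day 3 replicate 2 left out). Itga1 was at 41 and 43.2 CPM at day 0 and 31.6 and 17.1 CPM at day 3 in control (difference 2.81, SE 0.39, adjusted p = 0.0211, or 2.45 with control day 3 replicate 2 left out). Acta2 was at 1088 and 1113 CPM at day 0 and 553 and 813 CPM at day 3 in control (difference 1.87, SE 0.30, adjusted p = 0.0383, or 2.17 with control day 3 replicate 2 left out). Bmp4 was at 169 and 169 CPM at day 0 and 99.9 and 92.4 CPM at day 3 in control (difference 1.66, SE 0.22, adjusted p = 0.0153, or 1.61 with control day 3 replicate 2 left out). Klf4, at 26.9 and 21.4 CPM at day 0 and 62.2 and 69.2 CPM at day 3 in control, differed the other way (difference -2.34, SE 0.23, adjusted p = 0.00591, or -2.27 with control day 3 replicate 2 left out). Ly6a, which fell in the libraries labelled knockdown, was lower at day 3 in control too and differed by more there on the log2 scale, going from 16.3 and 12 CPM to 0.45 and 1.05 (difference 2.87, SE 0.46, adjusted p = 0.0423, or 3.42 with control day 3 replicate 2 left out). The steps of Alpl and Ibsp were not called different (difference 1.07, SE 0.36, adjusted p = 0.364, or 1.22 with control day 3 replicate 2 left out for Alpl, and difference -1.17, SE 0.42, adjusted p = 0.366, or -1.22 with control day 3 replicate 2 left out for Ibsp). Each fit without 1 library of day 0 or of knockdown day 3 called far fewer genes than the 37. Leaving out control day 3 replicate 1, which keeps the library that stands apart, gave far more. No library of day 5 or day 10 was left out singly. With only days 0 and 3 of both conditions the test called 0 genes, with 453 higher and 375 lower at an unadjusted p below 0.05.

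**Figure D5:**
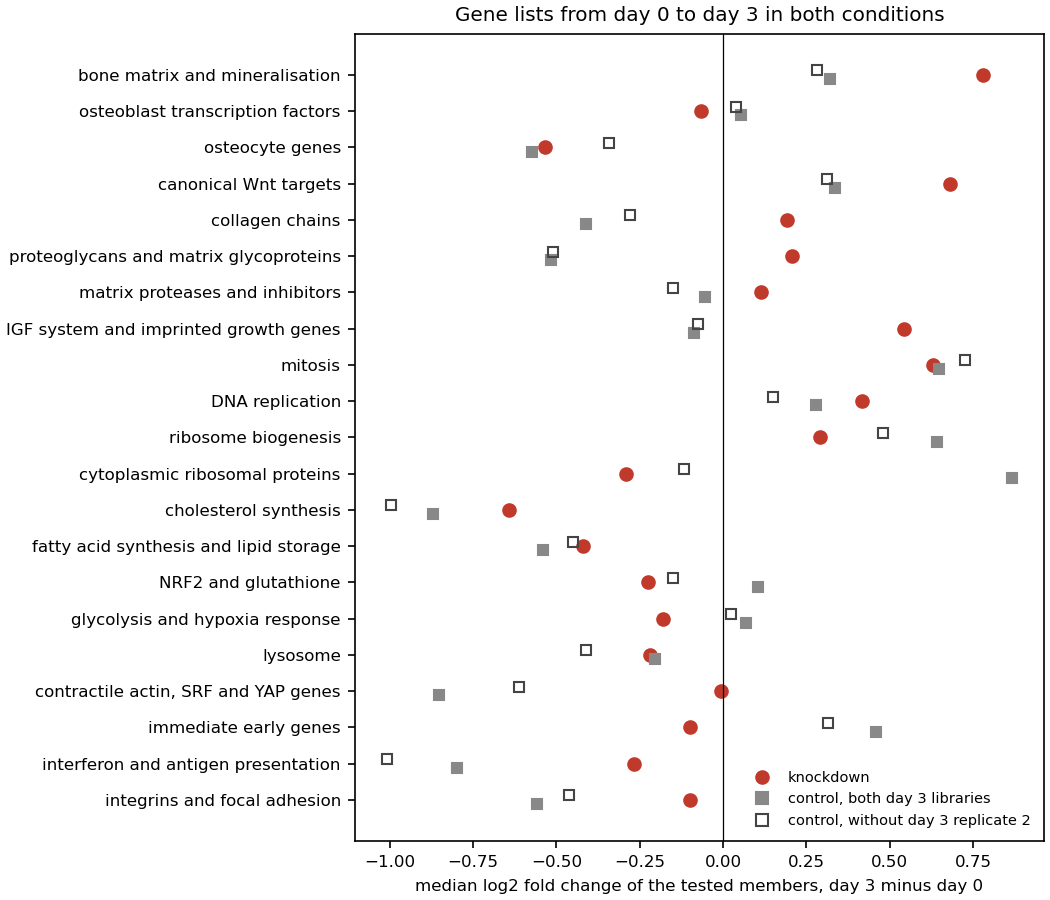
Median log2 difference from day 0 to day 3 of the tested members of each gene list (horizontal axis), 1 row per list. Red circles mark the libraries labelled knockdown. Filled grey squares mark control with both day 3 libraries, and open squares control without day 3 replicate 2, which leaves 1 library at day 3. Values here are for knockdown and then for control without day 3 replicate 2. Cholesterol synthesis lies low in both (-0.64 and -0.996) and mitosis high in both (0.63 and 0.73). Interferon (-0.27 and -1.01) and contractile genes (-0.01 and -0.61) lie lower in control.

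The knockdown step and the control step share no library, and both were read from fits in which the conditions share 1 estimate of the spread. In the fit without control day 3 replicate 2, control day 3 is 1 library, so its calls rest on the spread of other groups. Without control day 3 replicate 2, the 13 libraries gave 1945 calls of the knockdown step (15.8%), 1011 higher (8.24%) and 934 lower (7.61%), and 3373 of the control step (27.5%), 1795 higher (14.6%) and 1578 lower (12.9%). Of the 1011 risers in the libraries labelled knockdown, 605 were also called higher in control, 59.8% of the former and 33.7% of the control risers, and 47 were called lower there. Of the 934 fallers, 551 were called lower in control, 59.0% of the former and 34.9% of the control fallers, and 13 were called higher. With all 14 libraries the knockdown step had 80 higher and 43 lower calls and the control step 713 (5.81%) and 726 (5.91%), 1439 in all (11.7%), of which 47 higher and 27 lower calls were shared. In the fit of 13 libraries the mitosis list had 45 genes higher under the knockdown label and 44 in control, and the cholesterol synthesis list 20 genes lower in each. Among contractile genes control had 25 lower and 0 higher, against 4 lower and 9 higher in the libraries labelled knockdown, and among interferon genes 29 lower and 1 higher, against 8 lower and 1 higher. With all 14 libraries, control had 13 contractile and 16 interferon genes lower, and 0 higher in each list. The libraries labelled knockdown then had 2 contractile genes higher and 0 lower, and 0 interferon genes called. The difference between the conditions was not tested over these lists.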

How the data were processed

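Polyadenylated RNA of MC3T3-E1 cells was sequenced in strand-specific libraries, per the labels' protocols. The authors deposited raw read counts for 24346 genes and RPKM values for 24340, both with 1 column per library. Per the submitters' processing notes, bcl2fastq, TopHat2, edgeR and the build GRCm38 were used, while their versions and roles, the counting tool, its strand setting and the annotation were not given in the sources used. Genes that overlap or lie antisense to each other may therefore share reads. Positions and GC content come from GENCODE vM21 (GRCm38), which held 24181 of the genes and lacked 165.

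The 12274 genes that reached 10 counts in 2 or more of the 4 libraries were tested with edgeR 4.0.16 (R 4.3.3, TMM scaling, robust quasi-likelihood F test) on the 7 libraries labelled knockdown, with 1 mean per day and 3 residual degrees of freedom. The 14-library fit for the interaction had 6 residual degrees of freedom. P-values were adjusted by Benjamini-Hochberg over all tested genes, with a threshold of 0.05, and the test was run on simulated data first. CPM are counts scaled by library size with TMM factors, and intervals of ratios cover counting error only. Alternatives used DESeq2 1.42.0 and limma 3.58.1 on log2(RPKM + 1) or log2(RPKM + 0.1), where low genes have understated differences.

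The members and the 47 gene lists were chosen with earlier results of these data known. Of 1451 list entries 1412 were in the count table. Named genes were 20 fixed by name, the 15 largest rises and falls called with a mean of at least 5 CPM, up to 4 called members per list at that level, the 10 smallest p, and the 5 highest and lowest called values of each test of differences. Further called list members were named with their log2 difference after their values were seen. Promoters of 9016 tested genes were matched by symbol or gene ID to RefSeq (GRCm38.p6), and in 6323 the start was also that of an annotated transcript.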

Additional observations from a re-analysis of the deposited data

Results flagged for a closer look

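For 10 genes called from day 0 to day 3, the step differed between the libraries labelled knockdown and control in the interaction test of edgeR on all 14 libraries, each given as the knockdown step minus the control step on the log2 scale. With only days 0 and 3 of both conditions the test called 0 genes, so none of these 10. Fits without 1 library of day 0 or of knockdown day 3 called far fewer genes than all 14 libraries. Which of the 10 they kept is not given here. Leaving out control day 3 replicate 2 kept the call of each. Phospho1, the matrix vesicle phosphatase, differed by -4.31 (adjusted p = 0.0101, and -3.73 without that library), with a smaller rise in the libraries labelled knockdown. Egr1 differed by -2.04 (adjusted p = 0.0101, and -1.97 without that library), and in control was at 8.71 and 7.58 CPM at day 0 and 64 and 70.1 CPM at day 3. Klf4 differed by -2.34 (adjusted p = 0.00591, and -2.27 without that library), the pro-apoptotic Bbc3 by -2.08 (adjusted p = 0.0336, and -1.67 without that library) and Lrrc15, a leucine-rich repeat membrane protein, by -2.48 (adjusted p = 0.0353, and -2.09 without that library), and all 3 fell in the libraries labelled knockdown while their control levels were higher at day 3. Bbc3 was at 21.8 and 22 CPM at day 0 and 42.5 and 71.3 CPM at day 3 in control, and Lrrc15 at 2.4 and 1.88 CPM at day 0 and 4.57 and 7.78 CPM at day 3. In the other direction, Megf6 differed by 3.14 (adjusted p = 0.0225, and 3.28 without that library), Ly6a by 2.87 (adjusted p = 0.0423, and 3.42 without that library) and Itga1 by 2.81 (adjusted p = 0.0211, and 2.45 without that library). Entpd3, an ectonucleotidase, differed by 3.2 (adjusted p = 0.00591, and 3.08 without that library), with 28.6 and 30.8 CPM at day 0 and 37.2 and 44.7 CPM at day 3 under the knockdown label. Its control levels were 71.6 and 85.5 CPM at day 0 and 12.7 and 10.6 CPM at day 3. Sfrp2, a secreted binder of Wnt ligands, differed by 2.55 (adjusted p = 0.00591, and 2.39 without that library), with 118 and 136 CPM at day 0 and 160.4 and 168 CPM at day 3 under the knockdown label. Its control levels were 1265 and 1266 CPM at day 0 and 311 and 245 CPM at day 3. For Entpd3 and Sfrp2 the call of the knockdown step itself was lost in most fits without 1 library (adjusted p up to 0.189 and 0.255).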

How the results depend on the processing

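Gene counts are for edgeR's test unless stated. The 1568 calls of the step (854 higher, 714 lower) became 4754 (2465 and 2289) with the replicate number as a block, 4443 (2243 and 2200) with the block and GC offsets, 123 (80 and 43) with all 14 libraries, and 615 to 1441 (346 to 773, and 251 to 668) without 1 library. Without a low-count filter 1081 were lower. With the block 73 of 82 ribosomal protein genes were called lower, against 6 without it. Of the changes of at least 2-fold, 323 in the main fit, 102 were called with all 14 libraries and 137 by limma on log2(RPKM + 1). The labels do not say that replicate numbers pair libraries, and same-numbered knockdown libraries deviated together (correlations of 0.480, 0.446 and 0.491 for days 0 and 3, 0 and 5, and 3 and 5), with 2 numbers only. Between control and knockdown these correlations were 0.353 to 0.461, except those with control day 3, at 0.0182 to 0.165. The block gave 33 calls in the test against control. There the 37 calls (26 higher, 11 lower) became 245 (169 and 76) by DESeq2, 76 (58 and 18) with GC offsets, 60 (40 and 20) by limma, 110 (74 and 36) without a filter, 0 in each direction with days 0 and 3 only (453 higher and 375 lower at an unadjusted p below 0.05), and 1 to 5942 (0 to 3227, and 1 to 2715) without 1 library. In the test against the next step the 261 calls (182 higher, 79 lower) became 464 (287 and 177) in the 13 libraries without control day 3 replicate 2, 4 (3 and 1) with all 14, 2889 (1551 and 1338) with the block, 2726 (1420 and 1306) with the block and GC offsets, 74 (56 and 18) by limma on log2(RPKM + 0.1), 78 (59 and 19) on log2(RPKM + 1), 776 (456 and 320) without a filter, and 20 to 114 (18 to 79, and 2 to 35) without 1 library. DESeq2 called 139 lower there. The causes were not tested. The sign of Lef1 (0.04) turned to -0.00351 and -0.000568 by limma with the smaller and the larger pseudocount and to -0.184 without day 0 replicate 1, and ran from -0.295 without day 3 replicate 1 to 0.279 without day 3 replicate 2, none of them called. Of 162 named genes called in the step, 49 kept their call in all 19 alternatives, 56 lost it only with all 14 libraries, and 57 lost it without some single library. The GC alternatives were chosen after seeing the data. Genes of few counts, such as Alpl and Bglap at day 0, limit their folds to wide intervals.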
